A study of Drosophila melanogaster with 6 samples.

Results

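The data described are the gene expression levels of male Drosophila melanogaster larvae that served as the heterozygous controls in a study of MSL2, a protein of the complex that raises transcription from the single male X chromosome. The series title asks whether MSL2 is needed by X-linked and by autosomal genes. These controls are the 3 arrays whose titles call them controls, of 6 in all, on which 11982 genes could be named and measured. The genotype label is yw/Yy+;msl21/+: the larvae carry 1 copy of the EMS-induced allele msl21 over a wild-type copy, and a Y chromosome marked with y+. The labels call the same animals wildtype, but every pool carries the mutant allele in 1 copy, so none is wild type at msl2. Each array holds RNA from a separate preparation of a pool of 50 or more whole larvae of the last larval instar. A value is therefore an average over animals and over all organs, and less RNA per cell cannot be told apart from fewer cells of a type. The mutant arrays are used only in choosing between probe sets of a gene. With 1 group of 3 pools, no test is made, and all values are given as descriptions.

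The last larval instar is the feeding and growing phase that ends in wandering and pupariation. Most of the animal is then made of large polyploid organs, the gut, fat body, salivary glands and body wall muscle, under a secreted cuticle. The small diploid tissues that build the adult, the imaginal discs, together with the brain and gonads, make up little of its mass. Salivary glands fill with glue proteins shortly before pupariation, and the fat body secretes storage proteins into the blood.

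Control means spread over nearly 12 log2 units, and most of 99 reference genes lay at the dim end. Over 11982 genes the mean of the 3 arrays ran from 2.42 to 14.25 with a median of 6.999 (log2 RMA value, a probe set's brightness). The brightest 10% of genes lay at 9.92 or above, and the dimmest 25% at 5.40 or below. These are odorant receptors and genes of eggshell and yolk, adult eye and male accessory gland. Their median was 3.62, and 89 of them were in the dimmest 25%. Odorant receptors are not limited to adult or female organs by this choice, and their use in these larvae was not tested. Their upper quartile was 4.30, and a larval gene at such a level cannot be told from them. Brightness also depends on the probes: in the 1094 genes with several probe sets, the brightest and the dimmest differed by a median of 1.63, and in 450 of them by more than 2. Ranks between genes are coarse for that reason.

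**Figure D1:**
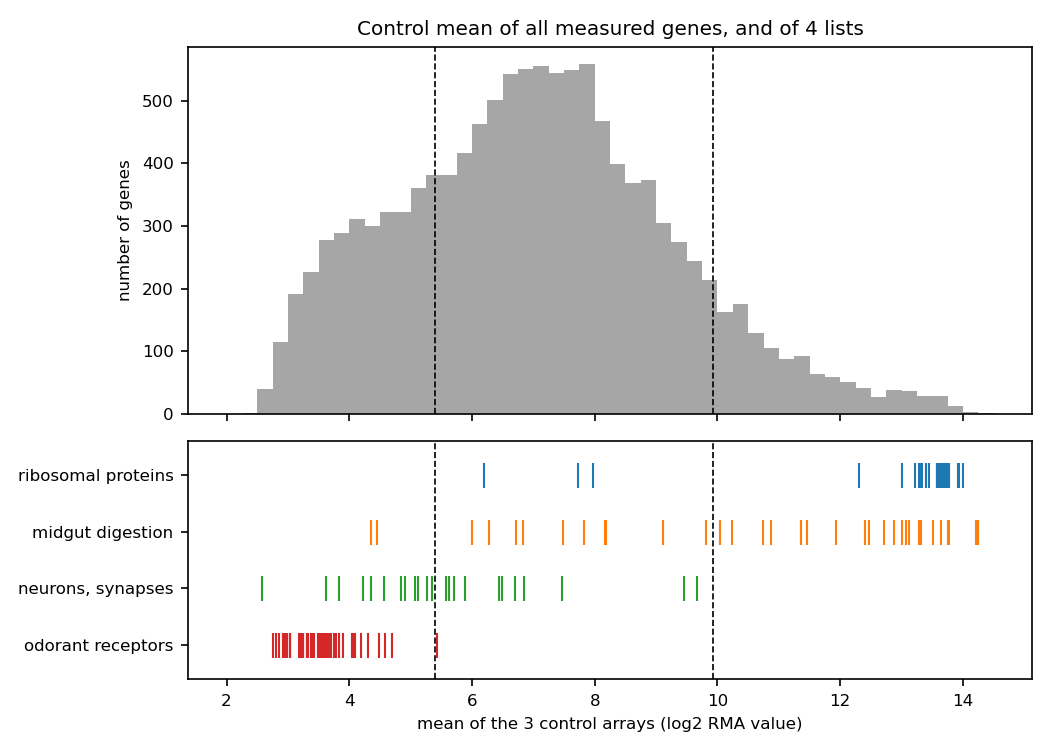
Number of genes by mean log2 RMA value of the 3 control arrays (top), and the members of 4 gene lists on the same axis, each tick 1 gene (bottom). Dashed lines mark the upper edge of the dimmest 25% (5.40) and the lower edge of the brightest 10% (9.92); odorant receptors sit at the dim end and most ribosomal proteins above 13.

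The brightest measured genes of the control larvae coded for gut proteases, ribosomal proteins, muscle and matrix proteins. Of the 1877 probe sets in the brightest 10% of all but the control ones, 222 name no gene and 63 name several. These probe sets are left out of the ranking. Jon66Ci and Jon65Aiv, serine proteases of the Jonah family that are secreted into the gut, were ranked 1 and 2. Jon66Ci had 14.20, 14.30 and 14.24 in control replicates 1, 2 and 3, and Jon65Aiv 14.14, 14.24 and 14.28. MtnA, a metallothionein that binds copper and other metals, followed with 14.11, 14.14 and 14.19. These values lie close to the top of the scale, where the largest value of any probe set was 14.30. The 20 brightest genes include 7 ribosomal protein genes, from RpL41 at 14.005 ± 0.04 to RpS18 at 13.72 ± 0.02 (SD, n = 3, here and below). They also include 4 genes of the midgut list, the muscle myosin light chain Mlc1 (13.77 ± 0.06), the gut lining protein Peritrophin-15a (13.73 ± 0.06) and the cuticle protein Cpr47Eg (13.72 ± 0.14). The others are yip7 (13.76 ± 0.15), a serine protease, Nplp4 (13.80 ± 0.08), named as a neuropeptide-like precursor, Ag5r2 (13.74 ± 0.21), of the antigen 5-related family, and CG18180 and CG34282 (13.87 ± 0.05 and 13.75 ± 0.07).

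Of the 100 brightest genes, all at 13.06 or more, 25 belong to the cytoplasmic ribosomal proteins, 10 to midgut digestion and 6 to the respiratory chain and ATP synthase. Another 22 have only a CG number as a name, against 43.5% of all genes. The set was much the same in each pool: 82 genes were among the 100 brightest of all 3 arrays, and any pair of arrays shared between 84 and 92. Their median SD was 0.07, against 0.15 for all genes, and 0 of them differed by more than 1 log2 unit between pools. Their levels lie near the top of the scale, 14.30, and the part of saturation in this small spread was not tested.

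Gene lists for the large larval organs lay mostly in the brightest 10% of genes, by definition the background share of 10%. For midgut digestion 23 of 35 measured members were in that class, among them Jon65Aiii at 13.77 ± 0.10. Only Mal-A7 (4.45 ± 0.28), a maltase, and Ser8 (4.36 ± 0.20) were in the dimmest 25%, where the background is 25% of genes. The peritrophic matrix is the chitin and protein sleeve that lines the gut, and its list was split, with 6 of 12 members bright and 5 dim. Peritrophin-15a and Peritrophin-15b had 13.73 ± 0.06 and 13.13 ± 0.06, whereas the mucin-related Mur82C and Muc68D had 3.06 ± 0.04 and 3.45 ± 0.12.

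Most genes of body wall muscle were bright, and the dim ones are known from adult muscle. Of 22 measured genes of body wall muscle 14 were in the brightest 10%, led by Mlc1, by Mlp60A, a LIM protein (13.66 ± 0.10), and by Mf, a myofilament protein (13.34 ± 0.11). The actin Act87E of the larval body wall was at 12.44 ± 0.05. The 4 members in the dimmest 25% are Act88F (4.15 ± 0.28), the actin of indirect flight muscle, Act79B (4.35 ± 0.06), an actin of adult thorax and leg muscle, fln (4.24 ± 0.02), a flight muscle protein, and TpnC41C (3.51 ± 0.10), a troponin C known from adult muscle. In the arrays Act88F had 3.91, 4.46 and 4.10, on both sides of the reference genes' upper quartile of 4.30.

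Salivary gland glue genes had high levels in every pool. Of 12 measured glue and new-glue genes 9 were in the brightest 10%. The glue gene Sgs7 had 13.47, 13.49 and 13.90, Sgs5 had 13.33, 13.37 and 13.75, and Sgs8 had 12.99, 12.94 and 13.59 in control replicates 1, 2 and 3. In all 3 genes the third pool was the highest. The other 3 were Sgs5bis, at 9.33 ± 0.38, Sgs1, with 8.01, 8.38 and 9.51, and ng4, at 4.57 ± 0.15.

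Fat body and cuticle genes followed the same pattern of a few very bright members. In the fat body list 6 of 10 were bright and 0 dim, with the larval serum protein gene Lsp2 at 13.06, 13.29 and 13.62 and apolpp, the lipoprotein that carries lipid in the blood, at 13.15, 13.09 and 13.09. Fbp2, a fat body protein, had 12.15, 12.28 and 13.26, with control replicate 3 apart from the other pools. Larval cuticle proteins had 6 of 17 bright, with Lcp65Ac at 13.11 ± 0.15 and Lcp9 at 12.43 ± 0.09. Their 3 dim members, Edg78E (3.99 ± 0.20), Edg84A (3.75 ± 0.02) and Ccp84Ag (4.99 ± 0.30), include a pair of pupal cuticle genes that are switched on after the ecdysone peak.

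Among the genes that mark the stage, those of the prepupa were dim. The 71E late puff genes are expressed in prepupal salivary glands, and 8 of 9 measured ones were in the dimmest 25%, with Eig71Eg at 3.93 ± 0.29 and Eig71Ea at 3.60 ± 0.29. The remaining gene, Eig71Ee, which is used earlier together with the glue, had 10.42, 11.24 and 11.59, lowest in control replicate 1 and highest in control replicate 3. In the list of the ecdysone response 1 of 20 members was bright and 5 dim, with MsrA, a methionine sulfoxide reductase, at 10.28 ± 0.21 and ImpL2, a binding protein of insulin-like peptides, at 9.83 ± 0.15.

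In the testis and spermatocyte list 7 of 33 measured genes were in the brightest 10% and 5 in the dimmest 25%. The brightest were ocn (10.57 ± 0.26), the testis tubulin betaTub85D (10.55 ± 0.18) and Mst87F, a sperm protein gene (10.32 ± 0.26). Mst87F had 10.27, 10.09 and 10.60. The 5 dim members include aly, can and comr, meiotic arrest genes, which switch on the spermatocyte program, at 5.08 ± 0.18, 5.11 ± 0.23 and 5.37 ± 0.10. The others are bam of the early germline at 5.27 ± 0.60 and achi at 4.28 ± 0.25. All other measured genes of the list, further meiotic arrest genes among them, lay above the dimmest 25%. Of the 4 Y-linked fertility genes measured, kl-2 (3.96 ± 0.06), Ppr-Y (3.05 ± 0.16) and ORY (2.56 ± 0.10) were in the dimmest 25%, and Pp1-Y2 was at 5.58 ± 0.10. Yolk protein genes Yp1 and Yp2, made by the adult female fat body and ovary, had 3.27 ± 0.05 and 4.01 ± 0.16, and Yp3 had 6.45, 6.38 and 5.73. Of the 17 yolk and eggshell genes 12 were dim, with a median of 4.65, and Vm26Aa, a vitelline membrane protein gene, was the highest at 6.43 ± 0.16. In the accessory gland list 16 of 18 genes were dim, from Acp98AB at 2.76 ± 0.07 upwards. The other genes of that list were Acp95EF at 6.48 ± 0.11 and EbpIII, named for the adult ejaculatory bulb, with 11.04, 10.68 and 10.95 in the larvae.

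Neurons, imaginal discs and the ring gland had 0 members in the brightest 10%, while neuropeptides and glia had 8% and 18.2% there. Of 23 measured genes of neurons and synapses 0 were in the brightest 10% and 12 in the dimmest 25%. The brightest was Ddc, which makes dopamine and serotonin and also acts in cuticle hardening, with 10.15, 9.58 and 9.25. The pan-neuronal gene elav had 4.87, 4.40 and 4.45, and nSyb, a synaptic vesicle protein, had 5.335, 5.31 and 5.17. These levels lie above the upper quartile of the reference genes, 4.30, with elav the nearer to it. Other members of the list had means below 4.30, namely VAChT (4.23 ± 0.26), VGlut (3.84 ± 0.07), onecut (3.61 ± 0.23) and ple (2.57 ± 0.09). Neuropeptide genes had a median of 6.22, with 2 of 25 bright. The bright members were Nplp4 and Nplp2 (13.70 ± 0.02), and the next was AstC, an allatostatin, at 8.48 ± 0.01. Among 11 glial genes the bright ones, Gs2, a glutamine synthetase (11.63 ± 0.12), and Indy, a citrate transporter (10.69 ± 0.09), are also used in other tissues, while wrapper, a glial adhesion protein, was at 3.71 ± 0.18.

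Imaginal disc and ring gland genes were similarly placed. Of 27 measured disc regulators 0 were bright and 10 dim, with a median of 5.58. The highest were ci, the transcription factor of Hedgehog signalling (8.47 ± 0.20), bab2 (7.83 ± 0.27) and the receptor gene Egfr (7.44 ± 0.08), and vg, which specifies the wing, was at 4.47 ± 0.12. Homeobox genes had 18 of 27 members in the dimmest 25%, with cad, which is also used in the gut, the highest at 8.88 ± 0.34. Of 9 genes of ecdysone synthesis 5 were dim, among them sad (5.07 ± 0.12), dib (5.06 ± 0.11) and nvd (3.53 ± 0.18), enzymes of the ring gland. Not all genes of the list were dim: sro had 6.63, 6.70 and 7.51 in control replicates 1, 2 and 3. The enzyme shd, which makes the active hormone in other tissues, was at 7.77 ± 0.13, and Npc1a, a sterol transporter, at 8.95 ± 0.11.

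Trachea, blood, Malpighian tubule and oenocyte lists lay between these extremes. For the trachea 4 of 10 were bright, with the chitin-binding Gasp at 11.997 ± 0.12 and the chitin deacetylases serp and verm at 11.33 ± 0.20 and 11.07 ± 0.35. Gasp, serp and verm are also in the list of chitin-binding proteins and chitinases, and their share from the trachea was not tested. The receptor gene of tracheal branching, btl, was at 5.001 ± 0.21. For blood cells 4 of 18 were bright, led by atilla, a lamellocyte marker (11.15 ± 0.04), and the collagen genes vkg and Col4a1 (10.82 ± 0.52 and 10.68 ± 0.59), which the fat body also expresses. Which cells of the whole larvae gave the atilla value was not tested. The crystal cell regulator lz was at 2.96 ± 0.15. The 11 tubule genes had 0 bright and 0 dim members and a median of 8.11, with the transporter gene salt at 9.45 ± 0.25. Of 8 oenocyte genes 2 were bright, Desat1, a fatty acid desaturase (11.59 ± 0.07), and Cyp4g1, which makes cuticular hydrocarbons (10.69 ± 0.18).

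Lists of genes that every cell uses ranged from nearly all bright to none bright. Of 77 cytoplasmic ribosomal protein genes only 30 had a probe set that names 1 gene, and 0 of the others were on one that names several. Of the 30 measured, 27 were in the brightest 10%, with a median of 13.59 and a median SD of 0.04. Mitochondrial ribosomal proteins had a median of 9.28, with 9 of 69 bright, 0 dim and mRpL28 the highest at 10.74 ± 0.08. In the respiratory chain and ATP synthase 50 of 72 were bright, led by ATPsynF (13.39 ± 0.03), ND-MLRQ (13.38 ± 0.03) and COX7B (13.38 ± 0.04), and 2 were dim. All 10 measured genes of the citric acid cycle were bright, with the malate dehydrogenase gene Mdh1 at 13.004 ± 0.02, but their median SD of 0.22 was above the 0.15 of all genes. Of 11 glycolysis genes 9 were bright, with Gapdh1 at 13.06 ± 0.10 and a median SD of 0.17. Proteasome subunits lay in a narrow range, from 9.34 to 11.49, with 22 of 26 bright.

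Translation factors had 22 of 46 bright, with eEF5 at 13.13 ± 0.05, and chaperones 16 of 25, with the cognate Hsc70-4 at 13.41 ± 0.12. The subunits of the V-type proton pump, which acidifies vesicles and the gut lumen, had 14 of 31 members bright, 0 dim and Vha16-1 at 13.19 ± 0.06. Of 27 genes of RNA polymerase II and splicing 5 were bright and 0 dim, with SF2, a splicing factor, at 10.59 ± 0.14. Among 30 chitin-binding proteins and chitinases 12 were bright and 1 dim, with obst-E, a cuticle chitin-binding protein, at 12.04 ± 0.22, and among 11 tubulins and actins 5 were bright and 4 dim. Genes of DNA replication and the cell cycle had 0 of 22 in the brightest 10% and a median of 6.83, and PCNA, the replication clamp, was the highest at 8.82 ± 0.07.

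Large families that handle chemicals and signals from outside were mixed. Odorant receptors and gustatory receptors had 55 of 56 and 56 of 56 members in the dimmest 25%. Odorant-binding proteins had 7 of 47 in the brightest 10% and 26 in the dimmest 25%. Obp99b had 13.28, 13.53 and 14.02 and Obp56d 12.84, 12.67 and 13.29 in control replicates 1, 2 and 3, while the median of the family was 4.89. Cytochrome P450 genes had 10 of 81 bright and 12 dim, led by Cyp6a23 (11.04 ± 0.28). Glutathione transferases had 9 of 34 bright, with GstD1 at 13.08 ± 0.03, whereas 0 of 35 sugar conjugating enzymes were bright. The iron storage genes Fer1HCH and Fer2LCH, the ferritin subunits, were at 12.75 ± 0.16 and 12.71 ± 0.09.

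**Figure D2:**
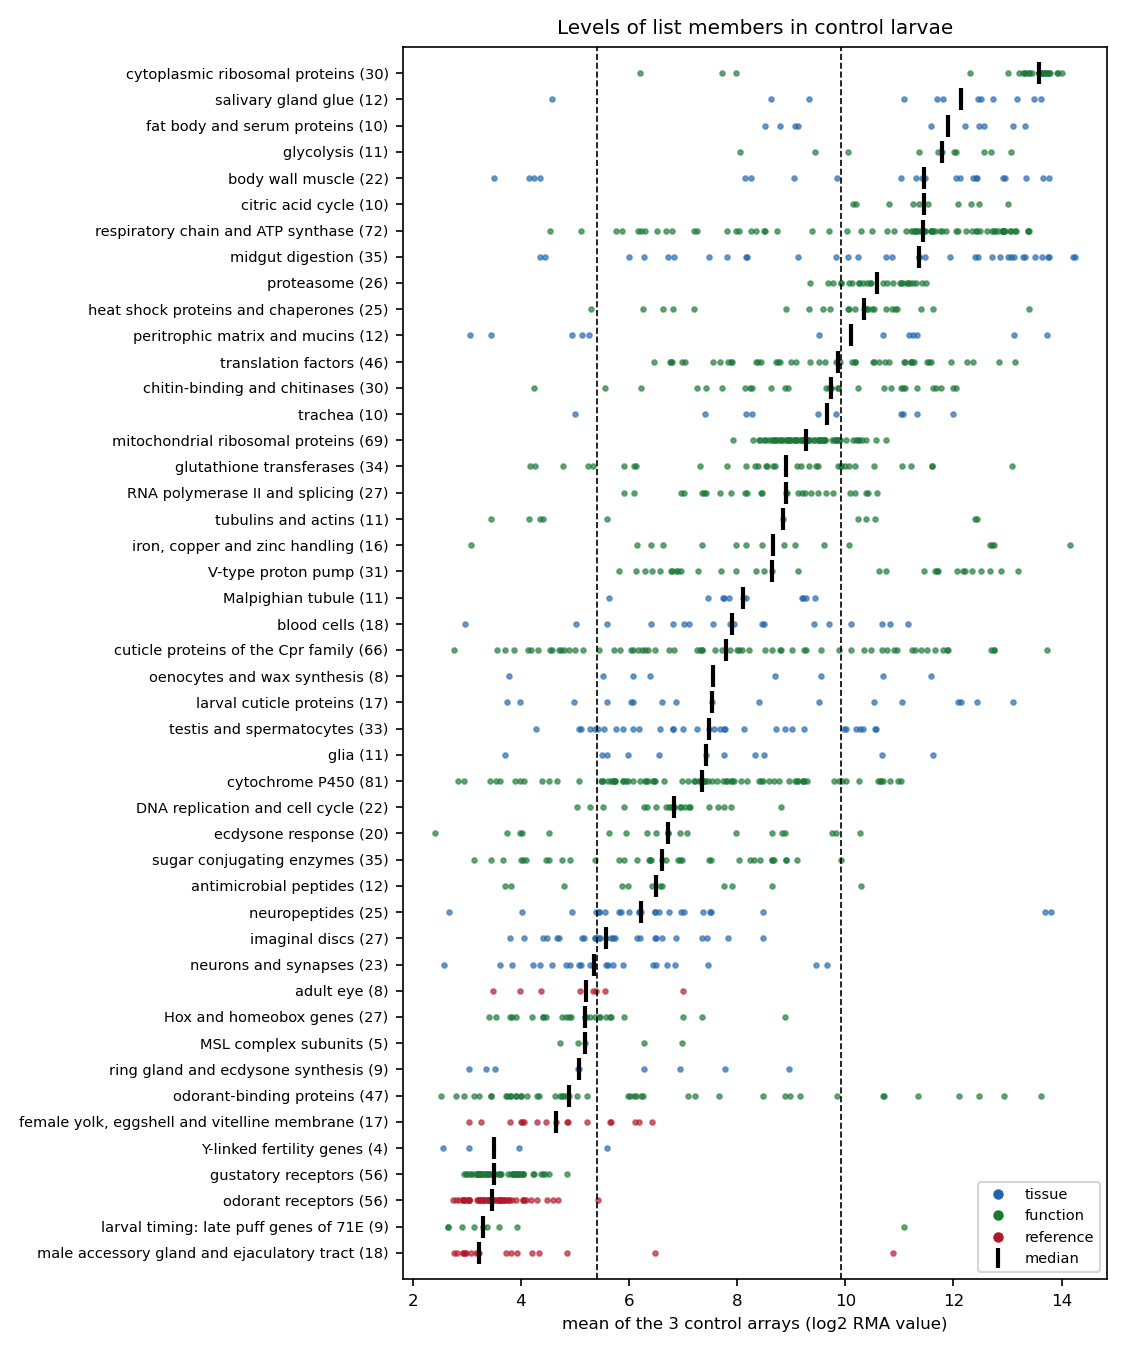
Mean log2 RMA value of the 3 control arrays for each measured member of 46 gene lists (dots, coloured by tissue, function or reference), with the number measured in brackets and the list median as a bar. Dashed lines mark 5.40 and 9.92, the edges of the dimmest 25% and the brightest 10%; 11 lists have their median rank in the brightest 10% and 12 in the dimmest 25%.

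X-linked genes had lower levels than autosomal ones when all genes were counted, and similar levels among the bright genes. The median of 1869 X-linked genes was 6.65. The arms 2L and 2R had 7.08 and 7.09, the arms 3L and 3R had 7.14 and 7.07, and the 65 genes of chromosome 4 had 6.93. The X minus autosome difference of medians was -0.38, -0.43 and -0.50 in control replicates 1, 2 and 3. In the brighter 50% of genes, 812 on the X and 5128 on 2L, 2R, 3L and 3R, it was -0.08, -0.07 and -0.18 (-0.11 ± 0.06). In the brightest 25%, with 381 X-linked genes, it was 0.01, 0.00077 and -0.04, on both sides of 0. The level filter is the same for every chromosome, so the medians compared are drawn towards each other by its construction.

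The X was short of genes in the bright classes and had more in the lower middle. It holds 15.6% of the measured genes and 12.6% of the brightest 10%, or 151 genes, which is 8.08% of its own. The major autosomal arms had between 9.59% (3R) and 10.9% (2R) of their genes in that class. Of the X-linked genes 27.2% were in the dimmest 25%, against 23.4% to 24.7% on those arms, and 30.8% on chromosome 4. Among the 100 brightest genes, the X held 7 and chromosome 4 held 2, while 2L and 2R held 20 and 19, and 3L and 3R 30 and 22. Ag5r2 was the brightest X-linked gene, and apolpp (13.11 ± 0.03) the brightest of chromosome 4. Those of 2L and 2R were RpLP1 (13.93 ± 0.02) and RpL41, and those of 3L and 3R were Jon66Ci and MtnA.

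**Figure D3:**
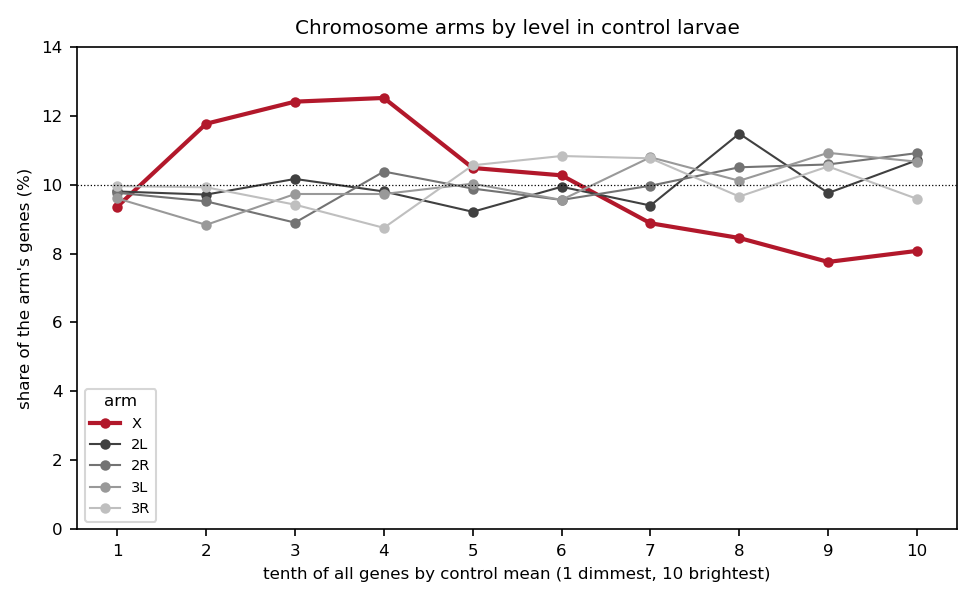
Share of the genes of the X and of each major autosomal arm (percent, vertical axis) that fall in each of 10 equal classes of all genes by control mean (horizontal axis, 1 the dimmest). The X line lies above the others in classes 2 to 4, at 11.8% to 12.5%, and below them in class 10, at 8.08%.

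X-linked and autosomal members were compared within 8 lists, and the X-linked median was lower in 7 of them. The 11 X-linked mitochondrial ribosomal protein genes had a median of 9.22 and the 58 autosomal ones 9.28. In the respiratory chain the medians were 11.40 for 10 X-linked and 11.43 for 61 autosomal genes. For cytochrome P450 genes they were 6.12 (14 genes) and 7.39 (67 genes). The widest gap was in translation factors, with 8.71 for 5 X-linked and 10.16 for 40 autosomal genes, and 3 X-linked proteasome genes had 10.06 against 10.78 for 23. The X minus autosome difference was -0.13 for odorant receptors, -0.27 for ribosomal proteins, with 1 X-linked gene, and 0.16 for gustatory receptors. The groups are small, levels differ with the probes, and no test was made.

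Of the 1193 placed genes of the brightest 10%, 29.3% had a neighbour among the measured genes that was bright too, and there were 10 runs of 4 or more. For the dimmest 25% the share was 55.2%, over a class that holds more genes. No chance share was computed for either. The genes of these runs were chosen after their values were seen. A run of Jonah proteases on 3L (Jon65Aiv, Jon65Aiii, Jon65Aii and Jon65Ai) had means from 13.12 to 14.22. A trypsin run on 2R (thetaTry, alphaTry, epsilonTry and betaTry) ran from 11.36 to 13.64, and 4 acyl-CoA-binding protein genes on 3L (Acbp4, Acbp6, Acbp3 and Acbp2) from 12.28 to 12.73. On the X, CG14265 and the new-glue genes ng2, ng3 and ng1 lay between 11.70 and 12.58. Probe sets of near-identical neighbours may detect each other's RNA, and this was not tested.

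The 3 control pools were alike for most genes. The median SD over all genes was 0.15, and the quartiles were 0.09 and 0.23. Across genes, Pearson's r between arrays was 0.991 for control replicates 1 and 2, 0.988 for 1 and 3, and 0.990 for 2 and 3. With genes cut into 10 classes of equal size by level, the spread was smallest in class 1, the dimmest (median SD 0.12), and largest in class 4 (0.18). The part of RMA, which compresses dim differences, in the small spread of class 1 was not tested. Among the brightest 10%, the 4 genes with the smallest SD were CG6766, nol, Got1, a glutamate oxaloacetate transaminase, and CG2852. Got1 had 11.34, 11.34 and 11.33.

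A range over 1 log2 unit between the pools was found for 242 genes, or 2.02% of all. It exceeded 2 for 30 genes and 3 for 13. Control replicate 3 was the highest pool in 130 of the 242, control replicate 1 in 70 and control replicate 2 in 42. With only control replicates 2 and 3 the count was 99, with 1 and 3 it was 173, and with 1 and 2 it was 83. The X held fewer of them, at 1.34% of its genes, than the major autosomal arms, at 1.94% to 2.43%. Chromosome 4, with only 65 measured genes, had 0. The median SD of X-linked genes was not lower, at 0.155 against 0.146 (2L) to 0.147 (3L) on the major autosomal arms.

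Members of some organ lists, but not of all, deviated together between pools, and some single members had a range over 1 log2 unit. The deviation of a pool is its value minus the gene's control mean, given here as the median over a list. Over all genes it was 0.01, -0.02 and -0.01, and control replicates 1, 2 and 3 were the highest pool for 38.8%, 26.8% and 34.4% of genes. Small deviations were also found for fat body (0.02, -0.04 and 0.01) and blood cells (0.04, -0.06 and 0.04). The same holds for the peritrophic matrix (0.03, -0.02 and -0.02) and oenocytes (-0.01, -0.05 and 0.05). Genes of neurons and synapses deviated by 0.29, -0.11 and -0.11, and 18 of 23 were highest in control replicate 1. Body wall muscle had 0.22, -0.01 and -0.14, with 16 of 22 highest in that pool. Glia (0.21, -0.07 and -0.13), tubule (0.21, -0.00014 and -0.17) and chaperones (0.18, -0.01 and -0.11) had the same order. Glycolysis and the citric acid cycle were also highest in control replicate 1, at 0.18 and 0.17, and lowest in control replicate 3, at -0.18 and -0.19.

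Midgut digestion ran the other way. It had -0.24, 0.13 and 0.12, and 1 of 35 genes was highest in control replicate 1. The range of single members is shown by iotaTry, a trypsin, with 9.22, 10.36 and 10.56, and by the lysozyme gene LysX, with 9.97, 11.02 and 11.62. Salivary glue had -0.17, -0.11 and 0.30, with 9 of 12 genes highest in control replicate 3. Proteasome subunits had -0.08, -0.05 and 0.12, with 22 of 26 highest there, and testis genes had 0.02, -0.20 and 0.18, with 22 of 33. The reference genes had -0.07, 0.09 and -0.03, with 64 of 99 highest in control replicate 2. Of the 10 classes by level, class 1, the dimmest, had -0.05, 0.05 and -0.01. Class 3 had -0.003, -0.008 and -0.02, so dim genes did not all share this order. The mean difference between 3' and 5' control probe sets, a sign of RNA quality, was 1.95, 1.80 and 1.85, highest in control replicate 1; its part in these deviations was not tested.

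**Figure D4:**
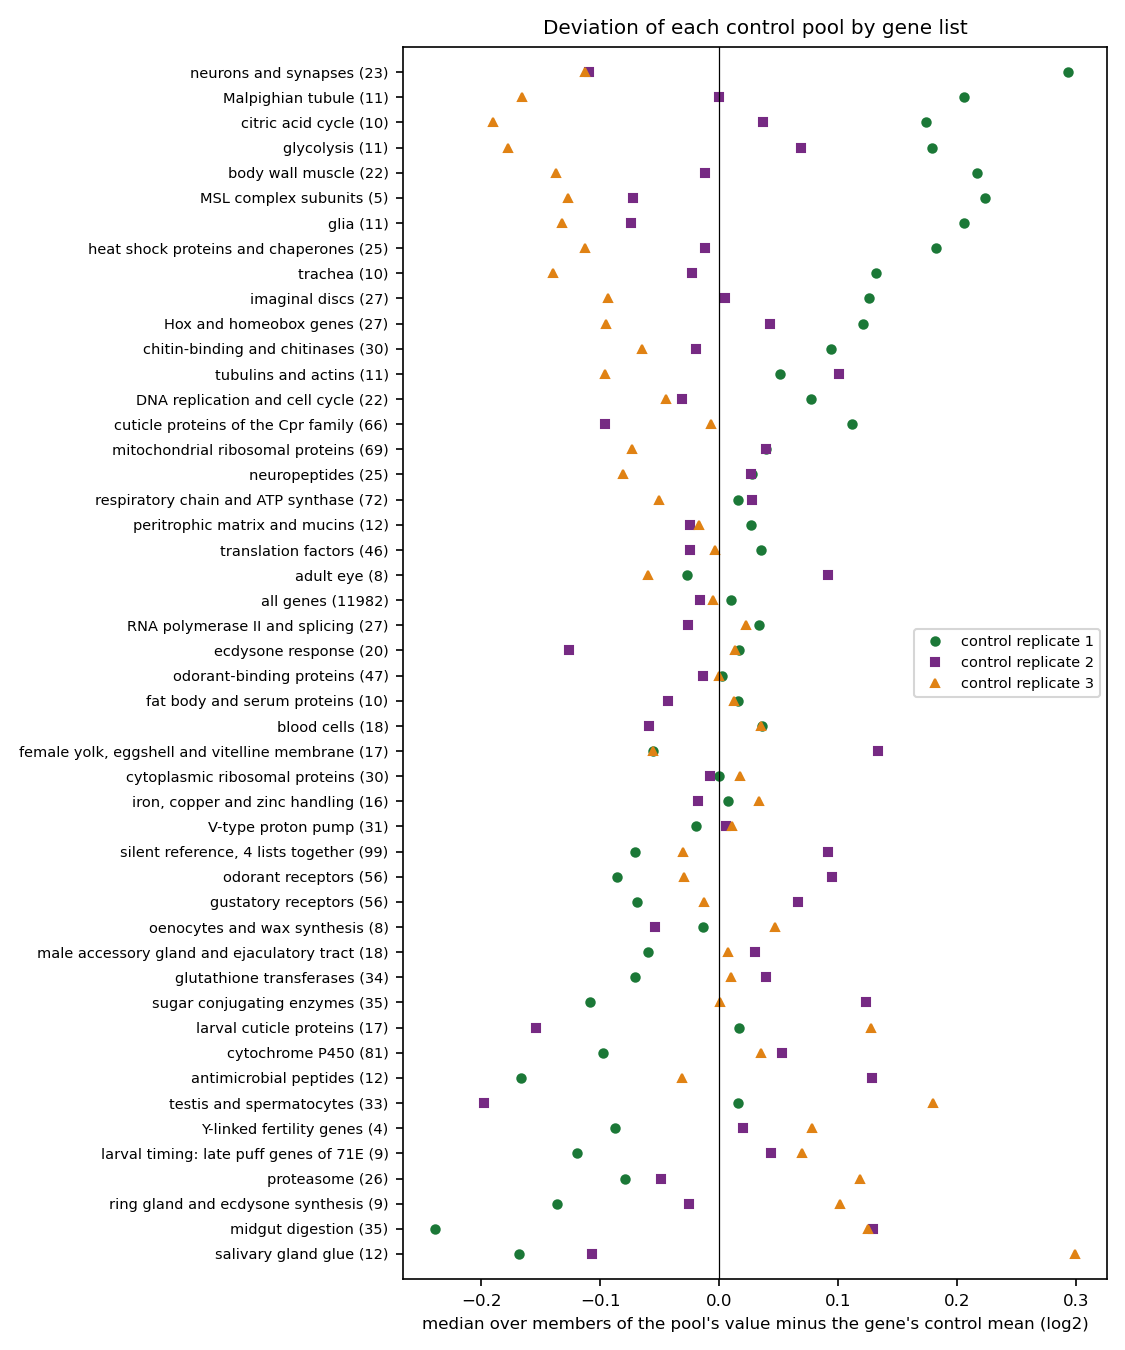
Median over the members of each gene list of a control pool's value minus the gene's control mean (log2, horizontal axis), 1 symbol per pool, with the number of measured genes in brackets. Neurons, muscle and glycolysis lie to the right in control replicate 1, midgut digestion lies to the left in it (-0.24), and salivary glue lies to the right in control replicate 3 (0.30).

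The 12 genes of the brighter 50% with the largest SD were chosen for their spread, and the pool that stood apart was not the same for all. CG14664 had 9.65, 10.01 and 4.99 in control replicates 1, 2 and 3, so only the third pool was low. CG17105 had 6.11, 6.62 and 11.10, with only the third pool high. CG9822 had 8.17, 9.06 and 4.81 and CG7906 had 6.78, 9.73 and 5.74. Of the 12, 8 have no name beyond a CG number, against 43.5% of all genes.

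**Figure D5:**
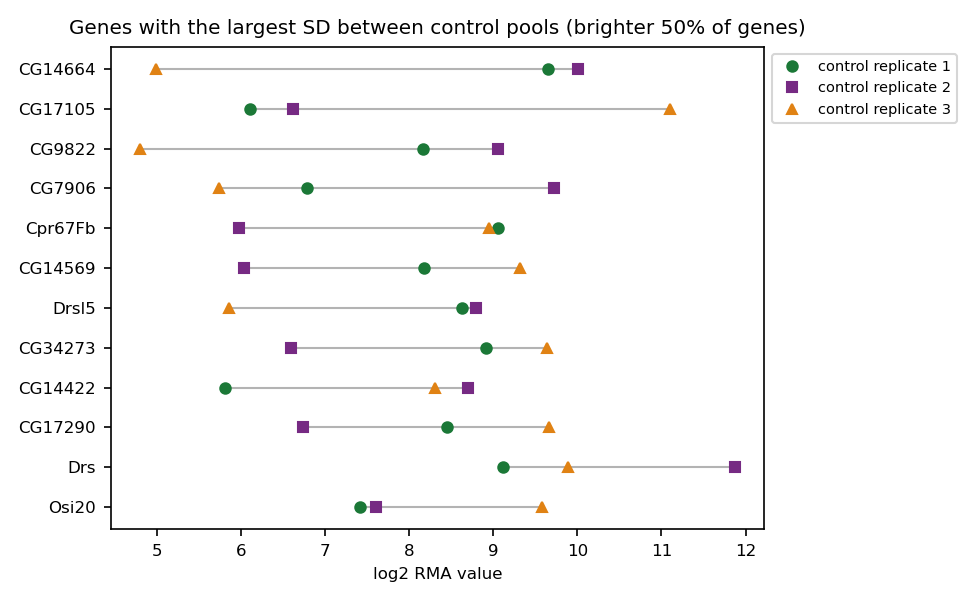
Log2 RMA values of the 12 genes with the largest SD between control pools in the brighter 50% of genes, 1 symbol per pool, joined by a line over their range. CG14664, CG9822 and CG7906 are lowest in control replicate 3, Cpr67Fb and CG34273 in control replicate 2, and CG17105 is highest in control replicate 3.

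Immune genes were prominent among the variable ones. Of 12 measured antimicrobial peptide genes 6 had a range over 1, against 2.02% of all genes. Drs (drosomycin), an antifungal peptide controlled by the Toll pathway, had 9.12, 11.87 and 9.88, highest in control replicate 2. BomS2 and BomT2, peptides of the Toll-induced Bomanin family, chosen after their values were seen, were also highest there, with 4.31, 8.33 and 4.52 and with 4.07, 7.90 and 4.40. Their neighbour BomBc2 had 5.08, 6.501 and 5.11. Other peptide genes had other orders: Mtk (metchnikowin) had 8.22, 8.02 and 9.67, whereas Drsl5 had 8.63, 8.79 and 5.86, and Drsl2 had 7.17, 7.35 and 5.19. AttD (attacin) had 5.86, 6.87 and 7.09 and Def (defensin) 6.82, 6.0004 and 5.12.

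Cuticle genes made up another part of the variable set. Of 66 measured members of the Cpr family 10 had a range over 1, against 2.02% of all genes. Cpr67Fb had 9.06, 5.98 and 8.95, low in control replicate 2, and TwdlE, a Tweedle cuticle protein, had 6.56, 4.56 and 7.10, low in the same pool. Cpr78E had 11.44, 11.48 and 12.79 and was high in control replicate 3. The neighbours Osi18, Osi19 and Osi20 on 3R, of a family of cuticle-forming cells, had values in control replicate 3 of 7.86, 8.99 and 9.59, in each gene the highest of the pools. The collagen genes vkg and Col4a1, adjacent on 2L, both had their highest value in control replicate 1 (11.36 and 11.29) and their lowest in control replicate 3 (10.34 and 10.11).

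Of the 5 subunit genes of the MSL complex measured, 3 were in the dimmest 25%, and the highest were msl-3 (6.99 ± 0.13) and msl-1 (6.28 ± 0.22). msl-2, of which the larvae carry 1 mutant copy, had 5.18, 5.14 and 4.86 in control replicates 1, 2 and 3; its array value does not check the allele. All 5 were highest in control replicate 1, the highest pool for 38.8% of all genes, with a median deviation of 0.22. This is not particular to the complex: that pool was also highest for 18 of 23 genes of neurons and synapses and 16 of 22 of body wall muscle. For midgut digestion it was highest in 1 of 35. The genotype marker y, a gene of dark pigment, had 7.87, 7.06 and 7.60.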

How the data were processed

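Affymetrix Drosophila Genome 2.0 arrays were hybridized with RNA of 6 pools. For every probe set the authors deposited a value on the log2 scale, made with RMA (background correction, normalization between arrays, summarization), per the labels. The scanner software was GCOS 1.4, per the submitters' processing notes, and the RMA program is not given in the sources used here. RMA equalizes the arrays and compresses dim differences. Array medians were 5.99, 5.93 and 5.97 in control replicates 1, 2 and 3. Arrays have no read depth, and their number limits the precision.

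Of 18952 probe sets, 183 are controls, 13646 name 1 gene in the platform annotation, 402 several, and 4721 are unnamed here. RefSeq's table (Release 6 plus ISO1 MT) held 13543 of the 13646 and gave symbols, arms and gene order. A gene's probe set is the one with the highest mean over all 6 arrays, which left 11982 genes. Ranks, SDs and ranges used the 3 control arrays (Python 3.11.15, pandas 2.3.3), without tests. The calculation was tested on simulated data.

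There were 46 gene lists; 8 of their names matched no gene. Genes named are the 20 brightest, the 12 most variable of the brighter 50%, the 4 least variable of the brightest 10%, the 3 brightest and the dim markers of each list, the brightest of each arm, and y. Other genes, among them list members with a range over 1, were chosen after their values were seen. Members and lists were chosen with earlier results of these data known.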

Additional observations from a re-analysis of the deposited data

How the results depend on the processing

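The count of genes with a range over 1 log2 unit between pools (242) was 83 to 173 when 1 pool was left out, where the range spans fewer pools, and 137 in the brighter 50% of genes, where fewer genes are counted. The median SD of 0.148 was 0.110 to 0.130 with 1 pool left out. The X minus autosome difference in the brighter 50% of genes, -0.11, was -0.44 over all genes and -0.0087 in the brightest 25%, so its size depends on the level filter. The other results, the 11 and 12 lists with their median in the brightest 10% and dimmest 25%, the X share of the bright genes and the level of the reference genes, moved by less than their spread, or for counts by under 1.5 times, under each setting run: other rules for a gene's probe set, each pool left out and, for the X share, cuts at 5% and 25%. Of 460 counts of single lists under these settings, 453 were within 1.5 times, and the other 7 moved by at most 2 genes. No paired analysis was possible because only 1 group is described.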
